A study of Mus musculus with 4 samples.

Results

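The genes described here are 8 that are read as marks of tissue-resident macrophages or as their scavenging and antimicrobial products: Lyve1, Folr2, Cd163, Pf4, Marco, Msr1, Lyz1 and Lyz2. They were taken by symbol from the gene list of the deposited count matrices, where each symbol had 1 row among 27998 genes, and all 8 were detected. The set had been chosen with results of the same data in view, so that what follows is a description of levels and of their differences, and none of it is independent evidence for the choice. In the study, nasal mucosa of C57BL/6 mice aged 8 weeks had been dissociated in a model of allergic rhinitis, and cells enriched by CD45, which leukocytes carry on their surface, had been profiled by droplet single-cell RNA sequencing. The mice had received vehicle (Vehicle) or ribavirin (Ribavirin), or these together with OVA (Vehicle-OVA and Ribavirin-OVA), and 1 library was made of each group. OVA is ovalbumin, the allergen, which in the model of the study is injected with alum and later instilled into the nose, and ribavirin is an antiviral drug. The labels give no dose or schedule of ribavirin and no number of mice per library, and they name magnetic beads for the CD45 enrichment where the series text names fluorescence-activated sorting.

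Resident macrophages clear dead cells, proteins and microbes from tissue with surface receptors that bind their cargo directly. Among the 8 genes, Cd163 encodes the receptor for haptoglobin-haemoglobin complexes, Marco and Msr1 encode class A scavenger receptors that bind modified lipoproteins and bacteria, Lyve1 encodes a hyaluronan receptor that is shared with lymphatic endothelium, and Folr2 encodes a folate receptor. Pf4 encodes a chemokine that platelets and resident macrophages share, and Lyz1 and Lyz2 encode the lysozymes of the mouse, enzymes that cut bacterial cell walls. Lyz2 is also abundant in monocytes and neutrophils, whereas LYVE1, FOLR2 and CD163 are known to mark perivascular macrophages.

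The libraries held 28277, 19143, 21401 and 10311 cells (Vehicle, then Vehicle-OVA, Ribavirin and Ribavirin-OVA, the order of all lists of 4 values), with a median of 3389 to 4952 unique molecular identifiers (UMIs, each standing for 1 captured RNA molecule) per cell, and after filters 69585 cells were kept. The shallowest barcode of Ribavirin had 1782 UMIs, against 500 or 501 in the other libraries. The cells were clustered together with the 8 genes left out of the clustering genes and of all marker lists. This gave 36 clusters, of which 29 could be named for 1 of 15 classes, and epithelial-like, stromal-like and olfactory neuron-like clusters showed that not all cells were leukocytes. A level is the summed UMIs of a gene in a group of cells, given as CPM, the usual scaling to the total UMIs of that group. With 1 library per group there was no spread between mice and nothing was tested. The 95% intervals cover counting error only, and they are too narrow where the UMIs of a gene lay in a few cells, which is stated beside the results it touches.

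Macrophage-like cells, which held 2257, 201, 1733 and 214 cells in the same order of libraries, were made up of 3 clusters. Cluster 7 was led by Ccl7, Vcam1 and Ccl12, cluster 19 by Crybb1, Fcrls and Nav3, and cluster 21 by Fcrls, Nrp2 and Lpl. Their mix was not the same across libraries. Cluster 7 held 1606 of the cells of Vehicle and 1278 of those of Ribavirin, but 67 of those of Vehicle-OVA and 49 of those of Ribavirin-OVA, where cluster 21 held more (78 and 108 cells). A pair of further clusters scored highest as macrophages and stayed unnamed because monocyte genes were among their leading genes. Cluster 4, led by Ly6i, Cfb and Cxcl9, held 2707, 94, 1756 and 63 cells. Cluster 5 (Ccl24, Arg1 and Retnla leading) had 29, 2371, 61 and 1508 cells and so was almost wholly a state of the OVA libraries. For this reason the 8 genes are also given in each cluster and in a group set without clustering, the C1q-positive cells (at least 5 UMIs of C1qa, C1qb and C1qc together and no UMI of Cd3e, Cd79a or Csf3r), which held 2176, 615, 1488 and 582 cells. With OVA, 81.6% of these cells in Vehicle-OVA and 76.8% in Ribavirin-OVA belonged to cluster 5.

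The 8 genes differed in where their UMIs lay. Among the named classes, Folr2, Cd163, Pf4 and Marco were highest in macrophage-like cells in all 4 libraries. The unnamed cluster 5 was above them for Cd163 in both OVA libraries (194 against 95.6 CPM in Vehicle-OVA, 246 against 62.7 CPM in Ribavirin-OVA). It was also above them for Pf4 (262 against 142 CPM and 251 against 168 CPM) and, in Ribavirin-OVA, for Folr2 (49.3 against 19 CPM). Folr2 in Vehicle was at 18.1 CPM in macrophage-like cells and at 0.783 CPM in epithelial-like cells, the next class. Cd163 was at 42.1 CPM, with pDC-like cells next at 3.47 CPM. Msr1 and Lyz2 were shared with monocyte-like cells. Msr1 was higher in monocyte-like than in macrophage-like cells in Vehicle (145 and 98.8 CPM), Vehicle-OVA (154 and 96.3 CPM) and Ribavirin (112 and 88.1 CPM), and lower in Ribavirin-OVA (100.3 and 122 CPM). Lyz2 was highest in monocyte-like cells in every library, at 15573 CPM against 9334 CPM in macrophage-like cells of Vehicle. Lyve1 had no UMI in monocyte-like cells of any library. With 1 CPM added to each level, 5 of the 8 genes (Lyve1, Folr2, Cd163, Pf4 and Marco) were at least 2-fold higher in macrophage-like than in monocyte-like cells in all 4 libraries, against 7.58% of 11644 genes. For Lyve1 in Ribavirin-OVA the call rested on 2 UMIs in 1 cell. As the genes were chosen as marks of macrophages, this count of 5 describes them and lends no support.

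**Figure D1:**
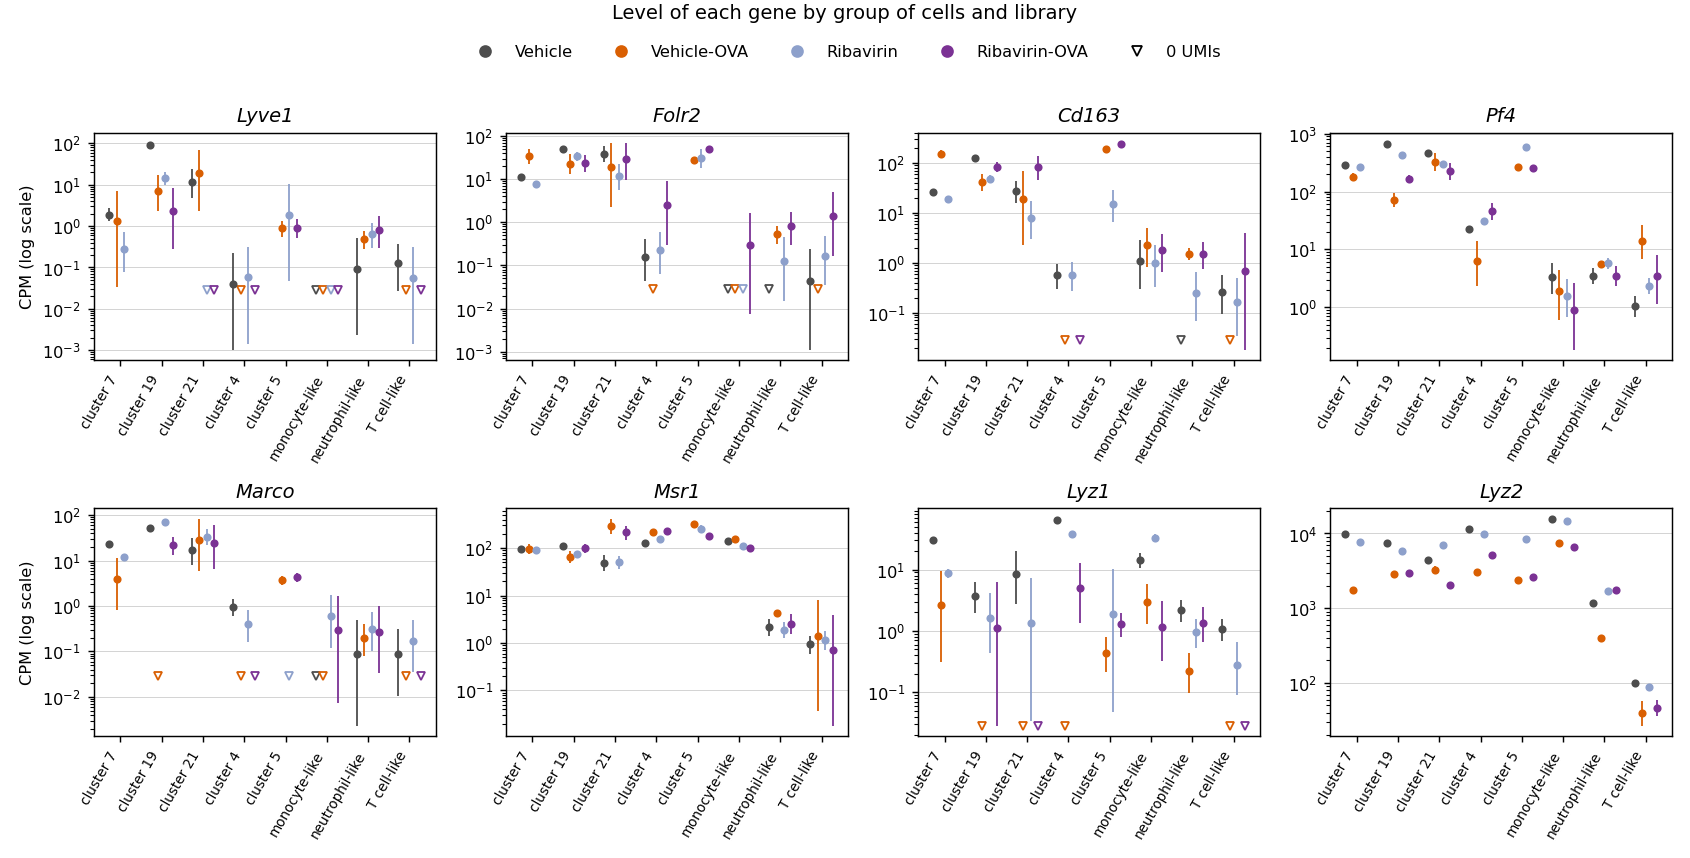
Level of each of the 8 genes in CPM (log axis) by group of cells, with 1 point per library and bars for the exact Poisson 95% interval. Among the named classes Folr2, Cd163, Pf4 and Marco are highest in macrophage-like cells in each library, whereas Lyz2 has it in monocyte-like cells.

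Whole libraries showed how far the source of these genes moved with OVA. In Vehicle 90% of Cd163 UMIs lay in macrophage-like cells, whereas 94.1% in Vehicle-OVA and 94.9% in Ribavirin-OVA lay in cluster 5. Cluster 5 likewise held 90.2% and 89.7% of Folr2 UMIs, 91.8% and 89.1% of Pf4 UMIs, 86.6% and 71.0% of Marco UMIs and 87.3% and 77.4% of Msr1 UMIs of Vehicle-OVA and Ribavirin-OVA. The Marco shares rested on very few cells. In Vehicle-OVA the 84 Marco UMIs of cluster 5 lay in 15 of 2371 cells, with 34 in the highest cell. In Ribavirin-OVA its 71 Marco UMIs lay in 5 of 1508 cells, with 45 in the highest cell. Without OVA, cluster 4 held 53.5% and 52.2% of Msr1 UMIs and 65.3% and 59.9% of Lyz1 UMIs of Vehicle and Ribavirin. Over all cells Cd163 stood at 6.74, 50.8, 3.29 and 50.9 CPM, and Lyz2 at 4052, 1077, 3087 and 1280 CPM, in the order Vehicle, Vehicle-OVA, Ribavirin and Ribavirin-OVA. The first was high in both OVA libraries and the second low in both. In these sums more cells of a cluster and more RNA per cell cannot be told apart.

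Within macrophage-like cells, OVA was compared with no OVA separately under vehicle and under ribavirin, pairs that share no library. A gene was counted as higher or lower where log2(CPM + 1) differed by more than 2-fold, among the 11200 genes that reached 50 UMIs in the 4 libraries together, a filter that all 8 genes passed. Under vehicle 1 of the 8 genes was higher with OVA (Cd163) against 8.55% of all genes, and 5 were lower (Lyve1, Pf4, Marco, Lyz1 and Lyz2) against 3.9% of all genes. Under ribavirin 1 was higher (Cd163, background 8.53%) and 2 were lower (Lyz1 and Lyz2, background 3.79%). The median log2 ratio of the 8 genes was -1.44 under vehicle and -0.61 under ribavirin, beside 0.27 and 0.25 for all genes. Because the genes had been picked with these contrasts known, the counts describe them and lend them no weight.

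Cd163 in macrophage-like cells was at 42.1 CPM in Vehicle, 95.6 CPM in Vehicle-OVA, 22.5 CPM in Ribavirin and, in Ribavirin-OVA, 62.7 CPM. Both OVA libraries were above both others, 2.27-fold under vehicle (1.90 to 2.70) and 2.79-fold under ribavirin (2.24 to 3.46). Both values rested on very few cells, so that these intervals are too narrow. In Vehicle-OVA 119 of the 150 UMIs lay in 5 of the 67 cells of cluster 7, and 52 in 1 cell. In Ribavirin-OVA 14 of the 214 macrophage-like cells had a Cd163 UMI, and 69 of the 109 UMIs lay in 1 cell of cluster 19. Across 16 other ways to set the cells or the scale it was past 2-fold in 10 and reversed in 1 (log2 ratio -0.082 with a mitochondrial limit of 20%), and under ribavirin it was past 2-fold in 14. In cluster 19 Cd163 was lower with OVA under vehicle (124 CPM without and 41.9 CPM with OVA) and higher under ribavirin (47.5 and 84.7 CPM). In C1q-positive cells, most of which were cluster 5 with OVA, Cd163 went from 29 to 134 CPM under vehicle (4.63-fold, 4.12 to 5.20) and from 15.9 to 219 CPM under ribavirin (13.7-fold, 12 to 15.8).

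Folr2 was at 18.1, 28.1, 11.4 and 19 CPM in macrophage-like cells of Vehicle, Vehicle-OVA, Ribavirin and Ribavirin-OVA. It was 1.55-fold higher with OVA under vehicle (1.11 to 2.12) and 1.66-fold higher under ribavirin (1.11 to 2.41), neither past 2-fold. The interval under vehicle is too narrow, as 26 of the 44 Folr2 UMIs of Vehicle-OVA lay in 5 cells of cluster 7. At full depth 7.44% of cells without and 7.46% with OVA had a Folr2 UMI under vehicle. Under ribavirin these shares were 5.65% and 10.7%. Folr2 was 3.06-fold higher with OVA in cluster 7 under vehicle. In cluster 19 its ratio was 0.464 under vehicle (0.26 to 0.776) and 0.705 under ribavirin (0.414 to 1.15). Among C1q-positive cells Folr2 was 1.85-fold higher (1.41 to 2.40) and 4.63-fold higher (3.65 to 5.91). Pf4 went the other way in macrophage-like cells, with 357, 142, 285 and 168 CPM, 2.52-fold lower with OVA under vehicle (2.21 to 2.89) and 1.70-fold lower under ribavirin (1.51 to 1.92). In C1q-positive cells the 4 values lay close together, at 191, 210, 160 and 214 CPM, so that the lower level of Pf4 with OVA under vehicle was found in the named macrophage clusters and turned in this group (log2 ratio -1.33 and 0.14). As Pf4 is also a platelet gene, the summed level of the 8 platelet markers was examined, and it was 5.08 to 9.56 CPM in macrophage-like cells of the 4 libraries.

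Marco and Msr1, the class A scavenger receptors, did not behave alike. Marco stood at 27.3, 3.83, 21.2 and 13.2 CPM in macrophage-like cells, 7.13-fold lower with OVA under vehicle (3.26 to 19.5, from 6 UMIs with OVA) and 1.60-fold lower under ribavirin (1.05 to 2.55). The UMIs lay in few cells, so that both intervals are too narrow. In Vehicle 10 cells held 311 of the 398 Marco UMIs of cluster 7. In Ribavirin 7 cells held all 171 of cluster 19, and in Ribavirin-OVA 2 cells of cluster 19 held 19 of the 23 Marco UMIs. In cluster 19 of Vehicle the 177 Marco UMIs lay in 8 of 412 cells, and no Marco UMI was found in the 56 cells of Vehicle-OVA, too few cells to show a difference for a gene found in so few. Msr1 stood at 98.8, 96.3, 88.1 and 122 CPM. Its ratio was 0.975 under vehicle (0.821 to 1.15), an interval that includes no difference, and 1.38 under ribavirin (1.19 to 1.60). In cluster 21 alone Msr1 was 5.91-fold higher with OVA under vehicle (3.45 to 10.2, 31 against 29 UMIs) and 4.24-fold higher under ribavirin (2.61 to 6.88, 36 against 38 UMIs). C1q-positive cells displayed 109, 311, 102 and 155 CPM of Msr1, a 2.85-fold (2.66 to 3.05) and a 1.51-fold (1.39 to 1.65) higher level with OVA.

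**Figure D2:**
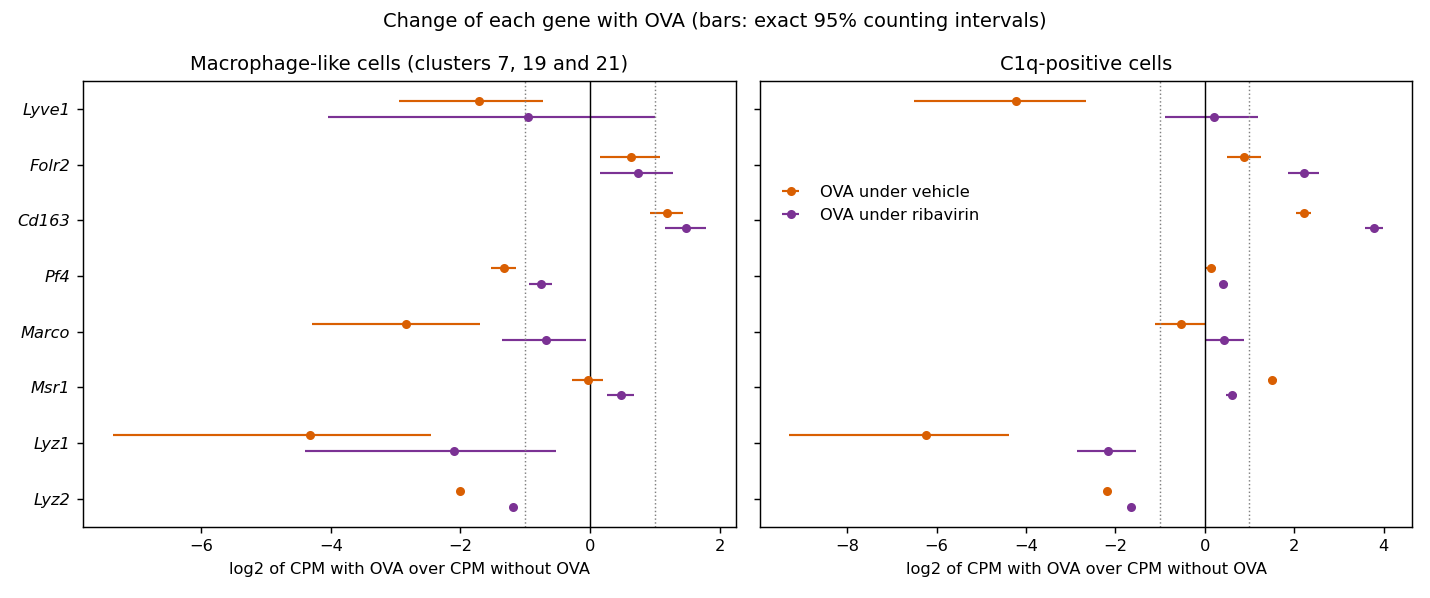
Log2 of the ratio of CPM with OVA to CPM without OVA for each gene, under vehicle and under ribavirin, in macrophage-like cells and in C1q-positive cells, with exact 95% counting intervals. Lyz1 and Lyz2 lie below 0 and Cd163 above 0 in all 4 cases, whereas Pf4 lies below 0 in macrophage-like cells and above 0 in C1q-positive cells.

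In C1q-positive cells 2 of the 8 genes were higher with OVA under vehicle (Cd163 and Msr1, against 11.4% of all genes) and 3 were lower (Lyve1, Lyz1 and Lyz2, against 5.47%). Under ribavirin 2 were higher (Folr2 and Cd163, background 12.7%) and 2 were lower (Lyz1 and Lyz2, background 3.12%). The calls made in both groups of cells and under both treatments were therefore those of Cd163, Lyz1 and Lyz2. The C1q-positive group leaves out cells with a UMI of Csf3r, a neutrophil gene, which removed 762 of the 1603 cells of cluster 7 in Vehicle that passed the C1q condition and 50 of the 56 cells of cluster 19 in Vehicle-OVA. The summed level of the 10 neutrophil markers in macrophage-like cells was 622, 1718, 672 and 585 CPM in the usual order, highest in Vehicle-OVA, and its part in the levels of the 8 genes was not tested.

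Cd163 and Folr2 in cluster 5 were not spread over the cluster. The 4409 Cd163 UMIs of Vehicle-OVA lay in 239 of 2371 cells and the 4044 of Ribavirin-OVA in 228 of 1508 cells. To see what these cells share, cells of cluster 5 with at least 3 Cd163 UMIs (160 and 156 cells) were set beside those with none (2132 and 1280 cells), a split chosen after the values were seen. Folr2 was at 135 CPM in the cells with Cd163 and 17.4 CPM in those without in Vehicle-OVA, and at 175 and 30.4 CPM in Ribavirin-OVA. Pf4 was likewise higher in them, at 596 against 224 CPM and 550 against 209 CPM, and so was Mrc1, the mannose receptor, at 4180 against 986 CPM and 3684 against 1106 CPM. Lyz2 was lower in them, at 1390 against 2512 CPM and 1253 against 2882 CPM. Ly6c2, a gene of classical monocytes, was also lower, at 22.4 against 279 CPM in Vehicle-OVA. The cells with Cd163 were deeper (median 11812 against 8166 UMIs in Vehicle-OVA), which by itself makes a threshold of 3 UMIs easier to reach.

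Without OVA the same genes met in a few cells of cluster 7. In Vehicle 45 cells of this cluster had at least 3 Cd163 UMIs and 1537 had none. Folr2 was at 171 CPM in the former and 5.33 CPM in the latter, and Pf4 at 1025 and 257 CPM. In the 23 such cells of Ribavirin Folr2 was at 137 CPM, against 4.80 CPM in cells without Cd163. Cells chosen by Marco were set beside cells without Marco in the same way. In the 20 cells of cluster 7 of Vehicle with at least 3 Marco UMIs, Pf4 was at 1326 CPM and Lyz2 at 14150 CPM, against 267 and 9740 CPM in cells without Marco. Cd163 was at 40 CPM in them against 24.6 CPM. No Lyve1 UMI was found in them, but only 9 of the 1606 cells of the cluster had one, so that this cannot show a difference.

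Lyve1 was sparse and unevenly spread. In macrophage-like cells it had 360, 8, 39 and 2 UMIs, which is 16.8, 5.10, 2.22 and 1.15 CPM. Vehicle was above the 3 other libraries. With OVA the level was 3.29-fold lower under vehicle (1.65 to 7.68), and under ribavirin, with 2 UMIs with OVA, the ratio was 0.517 (0.0605 to 2.00), an interval that includes no difference. Cluster 19 held 320 of the UMIs of Vehicle, where 26 cells with at least 3 Lyve1 UMIs carried 307 of the 374 Lyve1 UMIs of the whole library (82.1%). The corresponding cells of Ribavirin were 3, with 33 of 60 UMIs, and in Vehicle-OVA and Ribavirin-OVA 1 and 0 such cells were found in cluster 19. The level of Lyve1 in macrophage-like cells was therefore largely a count of a small population.

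These 26 cells, chosen by their Lyve1 counts and so after the values were seen, were set beside the 377 cells of cluster 19 in Vehicle that had no Lyve1 UMI. Cd163, Folr2 and Pf4 were higher in them. Cd163 stood at 1413 CPM against 31.2 CPM, Folr2 at 425 against 28.5 CPM and Pf4 at 3451 against 522 CPM. Marco and Lyz1 had no UMI in the 26 cells. They were found in only 8 and 10 of the 377 others, so that their absence from 26 cells cannot show a difference. Lyz2 was at 3298 CPM against 7670 CPM. Msr1 was at 113 and 109 CPM, close in both. Outside the 8 genes, Mrc1 was at 5514 against 491 CPM, F13a1, coagulation factor XIII, at 2050 against 31.5 CPM, and Cd209f, a C-type lectin, at 1135 against 7.04 CPM. Sall1, a transcription factor of microglia, had no UMI in the 26 cells and was at 86.9 CPM in the others. Among other genes known from microglia, P2ry12 was lower in the 26 cells (153 against 513 CPM), whereas Fcrls (975 against 614 CPM) and Crybb1 (272 against 187 CPM) were higher. C1qa was at 8208 and 8025 CPM, and Prox1, which marks lymphatic endothelium, had no UMI in the 26 cells. Prox1 was found in only 23 of the 377 others, so that its absence from 26 cells cannot show a difference. Of the 433 Cd163 UMIs of cluster 19 of Vehicle, 213 lay in the 26 cells and 102 in cells without Lyve1. Of the 173 Folr2 UMIs, 64 lay in the 26 cells and 93, the larger number, in cells without Lyve1.

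A second source of Lyve1 was the stromal-like cluster 29, led by endothelial genes such as Aqp1 and Cldn5. It held 32 of 77 Lyve1 UMIs in Vehicle-OVA and 105 of 129 in Ribavirin-OVA, in 3 cells each, of which 29 and 105 UMIs lay in cells that also had a UMI of Prox1, Mmrn1 or Flt4, genes of lymphatic endothelium. In Ribavirin-OVA this put stromal-like cells (96.9 CPM) above macrophage-like cells (1.15 CPM). In macrophage-like cells 5 of 6 lymphatic endothelial markers were found, at a summed 3.17 to 16.6 CPM.

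In macrophage-like cells both lysozymes were lower with OVA under both treatments. The 2 genes are neighbours on chromosome 10. In the GENCODE M21 annotation (GRCm38) Lyz2 lies at chr10:117277331-117282321 and Lyz1 at chr10:117287797-117292868, both on the minus strand and 5475 bases apart. Their coding sequences were 95.1% identical (425 of 447 bases) and the last 500 bases of their transcripts, where 3' libraries are read, 97.4% identical. Of the 90-base windows in that part, 3.65% (15 of 411) occurred in both genes, so that the division of UMIs between the genes, and the low level of Lyz1 beside that of Lyz2 above all, is uncertain. The upstream sequences of the pair are shown because both genes were lower with OVA in these cells, from 250 to 51 bases before the RefSeq start (GRCm38.p6), written along the strand of the gene.
Lyz1, chr10:117292919-117293118, minus strand: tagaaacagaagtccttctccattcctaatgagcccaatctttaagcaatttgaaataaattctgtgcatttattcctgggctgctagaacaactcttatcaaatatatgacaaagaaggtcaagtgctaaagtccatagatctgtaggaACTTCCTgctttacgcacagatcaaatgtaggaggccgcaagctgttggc
Lyz2, chr10:117282323-117282522, minus strand: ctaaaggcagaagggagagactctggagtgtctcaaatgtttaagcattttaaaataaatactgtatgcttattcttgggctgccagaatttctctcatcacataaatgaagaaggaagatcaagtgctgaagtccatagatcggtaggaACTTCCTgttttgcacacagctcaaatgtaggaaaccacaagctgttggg
The capitals mark ACTTCCT, the reverse complement of AGGAAGT, a sequence with the GGAA core that ETS factors such as PU.1 are known to bind. It starts 100 bases before the start in both genes, and in the 250 bases before the start 200 of 248 aligned bases were identical (80.6%). On either strand the motif occurs in 9.35% of all promoter windows of 300 bases in the table (3072 of 32851). Among the other genes it was found in the windows of Pf4 and of 1 of the entries of Folr2 and not in those of Cd163 and Marco. A match is a string of letters and no measure of binding.

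The other genes lie apart from each other. In the same annotation Marco is at chr1:120474538-120505024 (minus), Pf4 at chr5:90772435-90773383 (plus), Cd163 at chr6:124304656-124330527 (plus), Folr2 at chr7:101839988-101857194 (minus), Lyve1 at chr7:110850607-110863239 (minus) and Msr1 at chr8:39581685-39642673 (minus).

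Lyz2 stood at 9334 CPM in macrophage-like cells of Vehicle, 2331 CPM in Vehicle-OVA, 7337 CPM in Ribavirin and, in Ribavirin-OVA, 3234 CPM. Both OVA libraries were below both others, by 4.00-fold under vehicle (3.88 to 4.14) and by 2.27-fold under ribavirin (2.21 to 2.33). The direction was the same in 16 of 16 other ways to set the cells or the scale, and the call under ribavirin was kept in 12 of them. The cells of cluster 4 (11655, 3097, 9780 and 5082 CPM) and the monocyte-like cells (15573, 7357, 14798 and 6613 CPM) showed the same order of OVA and no OVA. The intervals for macrophage-like cells are too narrow, because with OVA the Lyz2 UMIs lay unevenly over these cells. In Vehicle-OVA the highest cell, in cluster 19, held 1087 of the 3656 UMIs. In Ribavirin-OVA the highest cell, also in cluster 19, held 811 of 5620. The share of cells with a Lyz2 UMI, which does not depend on such cells, was lower with OVA too. After each cell was thinned to 1000 UMIs, 90.5%, 60%, 90.2% and 62.7% of macrophage-like cells had a Lyz2 UMI, and without thinning 97.8%, 86.6%, 98.7% and 81.3%.

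Lyz2 was also compared in every cluster in which both libraries of a pair had at least 50 cells, and which held at least 50 Lyz2 UMIs in the pair. With OVA it was lower in 16 of 17 clusters under vehicle, by a median of 3.16-fold, the exception being the epithelial-like cluster 25 (1.39-fold higher). Under ribavirin it was lower in 21 of 21 clusters, by a median of 2.31-fold. Of these, the ratios of cluster 1 (0.975, 0.757 to 1.27) and cluster 2 (0.771, 0.514 to 1.11) had intervals that include no difference. Cluster 10 was left out of both counts, with 47 cells in Vehicle and 28 in Ribavirin. With OVA it was lower under vehicle (1033 and 458 CPM) and higher under ribavirin (667 and 981 CPM). The range of clusters included cells that are not known to make lysozyme M. T cell-like cells had 99.4, 39.9, 88.4 and 46.9 CPM, and after thinning 9.88%, 6.85%, 8.37% and 7.79% of them had a Lyz2 UMI. This was taken as the level that free RNA of the suspension can reach, and it too was lower with OVA. Cells with a lysozyme level far above it included the neutrophil-like cluster 18 with granule genes Camp and Ngp (7824, 3881, 8206 and 4781 CPM) and the epithelial-like cluster 17, led by Chil4, Tff2 and Reg3g (3703, 792, 3753 and 1541 CPM), in which C1qa was at 33.0 to 77.0 CPM.

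**Figure D3:**
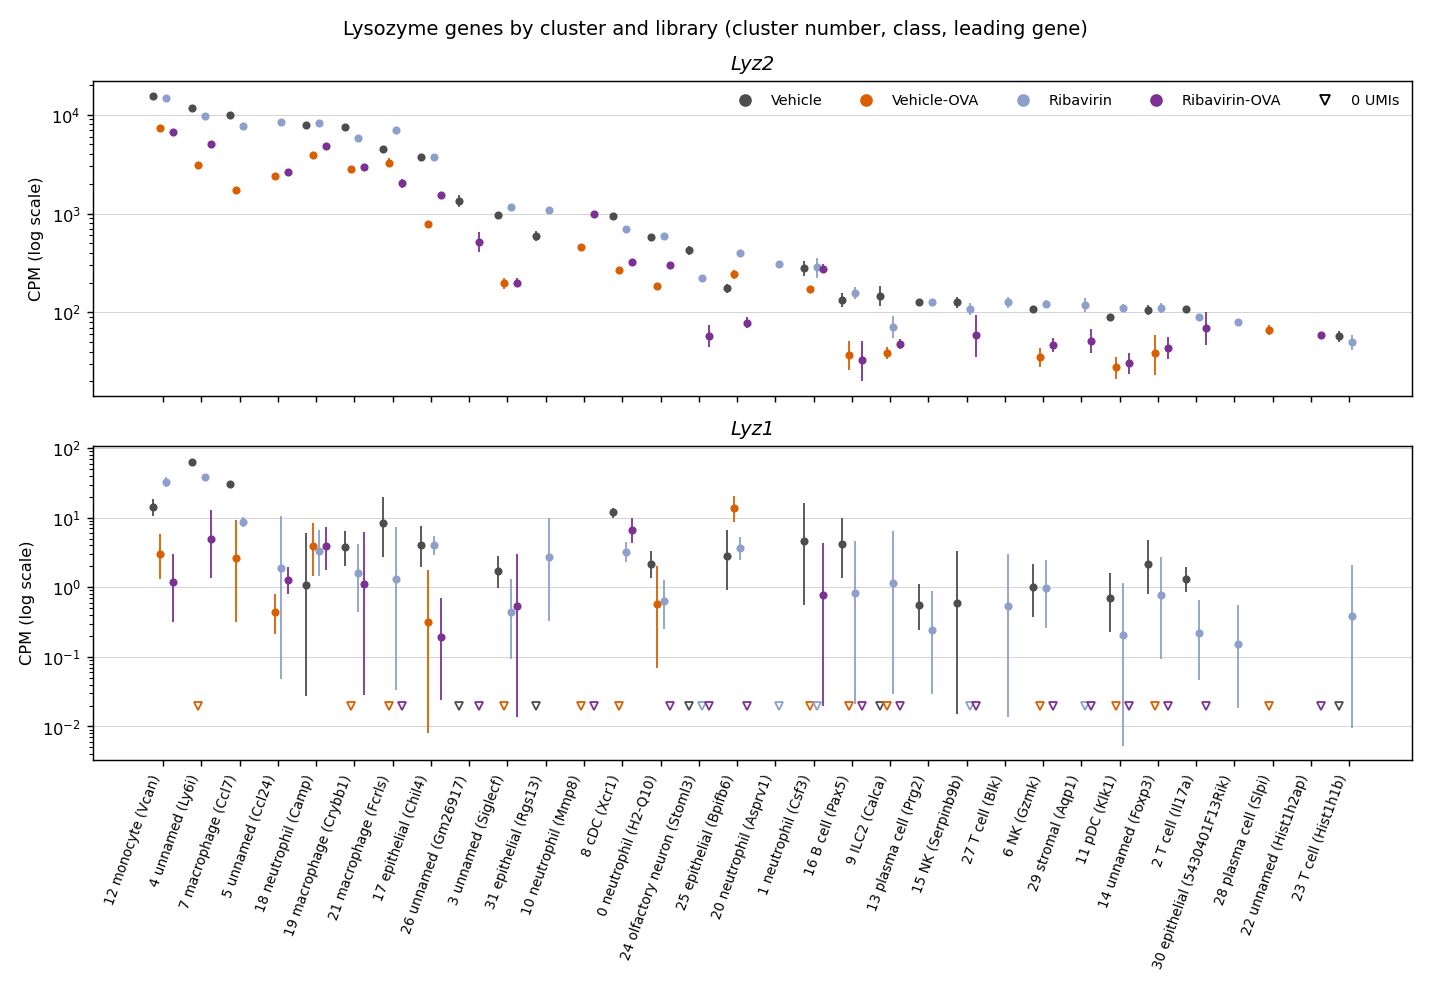
Levels of Lyz2 and Lyz1 in CPM (log axis) by cluster and library, with exact Poisson 95% intervals, each cluster labelled by its number, class and leading gene. The Lyz2 points of the OVA libraries lie below those of the libraries without OVA in nearly every cluster.

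Lyz1 was near its detection limit in macrophage-like cells with OVA. It had 545, 2, 130 and 3 UMIs, or 25.4, 1.28, 7.42 and 1.73 CPM, and the libraries without OVA were above those with OVA. The ratios were 19.9-fold lower under vehicle (5.49 to 165) and 4.30-fold lower under ribavirin (1.44 to 21.1). Its main source without OVA was cluster 4, with 1611 UMIs (64.0 CPM) in Vehicle and 664 UMIs (38.1 CPM) in Ribavirin, beside 0 UMIs in the 94 cells of Vehicle-OVA and 4 UMIs in the 63 cells of Ribavirin-OVA (7.67-fold lower, 2.98 to 28.2). Unlike Lyz2, which was detected in 2696 of the 2707 cells of this cluster in Vehicle, Lyz1 was detected in 238 of them, and 10 cells carried 42.8% of its UMIs. The 64 cells with at least 3 Lyz1 UMIs had Lyz2 at 17469 CPM against 11067 CPM in cells without Lyz1, and the 33 such cells of Ribavirin 14477 against 9478 CPM. The cDC-like cluster 8 (dendritic cells by its markers) went both ways, from 11.9 CPM to 0 UMIs in 283 cells with OVA under vehicle but from 3.26 to 6.69 CPM under ribavirin (2.05-fold higher, 1.17 to 3.52, 24 against 37 UMIs). The 24 UMIs lay in 6 of 278 cells (2.16%) and the 37 in 31 of 1011 cells (3.07%), so that this interval is too narrow. Of the named classes of Ribavirin-OVA the cDC-like cells were the highest in Lyz1, which rested on the same 6 cells. Over whole libraries there were 4.09, 0.523, 2.35 and 0.643 Lyz1 UMIs per 1000 Lyz2 UMIs, so that Lyz1 was lower with OVA also relative to Lyz2.

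Ribavirin was compared with vehicle in the same way, in pairs that share their libraries with the OVA pairs and are therefore only set beside them. Without OVA, none of the 8 genes was more than 2-fold higher in macrophage-like cells with ribavirin (0.616% of all genes were) and 2 were lower, Lyve1 and Lyz1 (0.0982% of all genes). Lyve1 was 7.54-fold lower (5.41 to 10.8), which is the difference between 26 and 3 cells described above. Lyz1 was 3.42-fold lower (2.82 to 4.18), with 67.0% of its UMIs in cluster 7 of Vehicle in 10 cells. The other 6 genes were lower by 1.12-fold (Msr1) to 1.87-fold (Cd163). With OVA, 1 gene was higher with ribavirin (Marco, 23 against 6 UMIs, 3.46-fold, 1.37 to 10.4, background 4.2%) and 1 lower (Lyve1, 2 against 8 UMIs, background 3.48%), both at counts too low to be firm. In C1q-positive cells, 0 were higher (background 4.56%) and 1 lower (Lyve1, background 0.077%) with ribavirin without OVA. With OVA 2 were higher (Lyve1 with 12 against 3 UMIs and Lyz1 with 22 against 2 UMIs, background 8.46%) and 1 lower (Msr1, 2.01-fold, 1.84 to 2.20, background 1.49%). The Lyve1 UMIs lay in 4 against 3 cells and the Lyz1 UMIs in 5 against 2 cells, too few to be firm. In cluster 5, where with OVA most UMIs of the receptors lay, Folr2 was 1.74-fold higher with ribavirin (1.57 to 1.94), Cd163 1.27-fold higher (1.22 to 1.33), Msr1 1.77-fold lower (1.70 to 1.85), Pf4 1.04-fold lower (1.00 to 1.09) and Lyz2 1.10-fold higher (1.08 to 1.11). The intervals of Cd163 and Folr2 are too narrow, because few cells of the cluster held their UMIs. In Vehicle-OVA and Ribavirin-OVA, 10 cells held 32.9% and 25.9% of its Cd163 UMIs and 21.8% and 18.4% of its Folr2 UMIs. At full depth 10.1% and 15.1% of its cells had a Cd163 UMI, and 10.3% and 17.7% a Folr2 UMI.

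The share of macrophage-like cells with a UMI, after thinning to 1000 UMIs, was small for most genes. Pf4 was found in 21%, 12.9%, 17.2% and 9.80% of cells and Msr1 in 9.09%, 13.5%, 7.5% and 11.8%. Cd163 was found in 2.55%, 3.23%, 1.62% and 2.61%, Folr2 in 1.81%, 1.29%, 1.33% and 2.61%, and Lyve1 in 1.21%, 1.29%, 0.173% and 0%. Marco and Lyz1 were found in 1.02% and 0.927% of cells in Vehicle, in 0.808% and 0.692% in Ribavirin, and in none of the 155 and 153 cells of the OVA libraries. In T cell-like cells, which should lack these receptors, the shares of the genes other than Lyz2 were 0% to 0.0908% in Vehicle and 0% to 0.35% in Ribavirin. They reached 1.37% in Vehicle-OVA (Pf4, 1 of 73 cells) and 0.649% in Ribavirin-OVA (Folr2, Cd163 and Pf4, 1 of 154 cells each), so that with OVA the shares of Lyve1, Folr2 and Cd163, of 0 to 5 cells each, cannot be told from background. Left out as shallower than 1000 UMIs were 100, 46, 0 and 61 macrophage-like cells, and the median depth of all macrophage-like cells was 9612, 6471, 9698 and 3256 UMIs, against 4163, 5096, 4926 and 4033 UMIs for T cell-like cells. The Lyz2 share was lower with OVA under both treatments, and the Pf4 share too, though under ribavirin its intervals overlapped (15.4% to 19.1% without and 5.59% to 15.7% with OVA). For Marco and Lyz1 a count of 0 with OVA allows shares of up to 2.35% and 2.38% by the exact interval, above those without OVA, so that no difference was detectable at this depth. Unthinned, Marco was in 2.48% of macrophage-like cells of Ribavirin and 2.34% of those of Ribavirin-OVA.

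Genes with the most similar pattern were sought over 66 sums of UMIs by class, or unnamed cluster, and library, among 13045 genes, with Pearson's r of log2(CPM + 1) as a description. The sums share libraries and are not independent. Folr2 was closest to Fcna (r = 0.90), a ficolin, and to Pla2g2d (0.90), and Cd163 to C6 (0.86), a complement component, and to Folr2 (0.83). Pf4 was closest to Ms4a7 and C1qa (0.90 each), Marco to Cd209f (0.90) and Fcrls (0.89), and for Msr1 the r with Ms4a4a was 0.93. Lyz2 was closest to Tlr8 (0.89), an endosomal sensor of RNA, and 1700112E06Rik (0.87), and Lyz1 to Guca1a (0.71) and Lyz2 (0.70). Lyve1 was closest to Ch25h (0.81) and Inmt (0.79). Among the 8 genes, Folr2 with Cd163 and Folr2 with Pf4 were closest (0.83 each), whereas Lyve1 with Msr1 reached 0.19.

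Other genes of the same functions were taken from 6 lists, and the 2 genes highest and the 2 lowest with OVA are named, in macrophage-like cells. Of 17 other scavenger receptors 12 passed the filter, of which 2 were higher and 2 lower with OVA under vehicle, and 2 higher and 1 lower under ribavirin. The background for all 6 lists is that of the same contrasts above, 8.55% of all genes higher and 3.9% lower under vehicle, and 8.53% and 3.79% under ribavirin. Olr1, a receptor of oxidised lipoproteins, was at 1.17, 10.2, 1.71 and 10.9 CPM and Scarf2 at 1.72, 7.65, 2.05 and 7.48 CPM, both high in both OVA libraries. Cd36, a fatty acid and lipoprotein receptor, was at 30.2, 10.8, 30.6 and 46.6 CPM, lower with OVA under vehicle and higher under ribavirin, and Scarf1 at 6.20, 1.28, 4.79 and 1.73 CPM, with 2 and 3 UMIs in the OVA libraries. The median log2 ratio of the list was 0.16 under vehicle and 0.66 under ribavirin, beside 0.27 and 0.25 for all genes.

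Among 21 of 24 other genes of resident macrophages, 0 were higher and 3 lower with OVA under vehicle, and 5 higher and 1 lower under ribavirin. Cbr2, a carbonyl reductase, was at 33.6, 61.8, 28.0 and 90.9 CPM and Gas6, a bridging ligand of dead cells, at 77.5, 142, 55.3 and 139 CPM. Cd209f was at 19.7, 3.19, 9.70 and 6.90 CPM and Cd209g at 3.45, 0, 1.83 and 1.15 CPM. The median was 0.06 and 0.59.

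Of the genes of haem and iron handling, 16 of 17 passed the filter, with 1 higher and 1 lower under vehicle and 2 higher and 2 lower under ribavirin. Beside Cd163, which takes up haemoglobin, Hmox1, the enzyme that opens haem, was at 164, 300.3, 127 and 200.2 CPM and Tfrc, the transferrin receptor, at 6.71, 19.8, 7.42 and 25.3 CPM. Blvrb, a biliverdin reductase, was at 265, 95.6, 248 and 93.2 CPM and Hp, haptoglobin, at 18.6, 13.4, 24.0 and 6.33 CPM. The median was -0.04 under vehicle and 0.34 under ribavirin. Of the folate genes, 12 of 13 passed, with 2 higher and 0 lower under each treatment. Slc46a1, the proton-coupled folate transporter, was at 5.45, 17.9, 5.25 and 31.6 CPM, and Shmt2 at 10.5, 12.8, 9.64 and 22.4 CPM. Tyms was at 8.90, 7.01, 8.16 and 8.63 CPM and Fpgs at 4.66, 6.38, 4.16 and 1.73 CPM. The median was 0.32 and 0.46.

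Of the hyaluronan genes, to which Lyve1 belongs by function, 7 of 12 passed, with 1 higher and 0 lower under vehicle and 1 higher and 1 lower under ribavirin. Cd44, the main hyaluronan receptor of leukocytes, was at 72.4, 168, 79.6 and 94.9 CPM, and Hmmr at 4.43, 6.38, 2.68 and 16.7 CPM. Tmem2 was at 13.7, 23.0, 15.2 and 10.4 CPM and Hyal1 at 3.68, 3.83, 3.02 and 0.575 CPM. The median was 0.66 and 0.25. Of other antimicrobial proteins 12 of 18 passed, with 5 higher and 0 lower under vehicle and 4 higher and 2 lower under ribavirin. Slpi, a protease inhibitor, was at 16.8, 106, 27.5 and 106 CPM, high in both OVA libraries, and Ngp, a neutrophil granule gene, at 1.96, 8.29, 5.48 and 19.6 CPM. Slpi was also among the top 10 genes of the plasma cell-like cluster 28, with 289 of 296 cells in Vehicle-OVA. The same held for the unnamed cluster 22, with 531 of 564 cells in Ribavirin-OVA. The part of free RNA in the Slpi level of macrophage-like cells was not tested. Ltf, lactoferrin, was at 38.5, 32.5, 42.4 and 57.5 CPM and Dmbt1 at 0.792, 0.638, 5.71 and 2.30 CPM. The median was 0.67 and 0.54.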

How the data were processed

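The authors deposited UMI counts per gene and cell barcode, whole numbers with no normalization, written by Cell Ranger 5.0.0 against mm10 per the submitters' processing notes, for called cells of 4 libraries (total UMIs 91742940 to 171873110). Barcodes were kept where they had 200 genes or more, 500 UMIs or more and less than 10% of UMIs from mitochondrial genes. Doublets were marked per library by simulated doublets, at 0.715% to 5.97% of cells against expected rates of 4.12% to 11.3%, so that doublets remain. Of barcodes, 57 to 174 were shared by a pair of libraries. The share of barcodes with at least 10% mitochondrial UMIs was 5.18% to 14.3%.

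The 4 libraries were clustered together (2000 variable genes without the 8 genes, 30 principal components, 15 neighbours, Leiden resolution 1.0, leidenalg 0.10.2, no batch correction) and clusters were named from marker lists by fold over all other cells. A cluster stayed unnamed where fewer than 3 markers were detected or where markers of another class outnumbered its own among its top 10 genes. Cluster 34, of 35 cells, stayed unnamed with 4 markers detected and no marker among its top 10 genes. Names are rebuilt here and may differ from those of the study. UMIs were summed per group of cells and library and divided by their total (CPM). Intervals are 95% and exact: Poisson for a sum, conditional binomial for a ratio, Clopper-Pearson for a share. With 1 library per group no test was made. The genes named are the 8 genes, for each the 2 genes of highest correlation (at least 500 UMIs, sums of at least 50 cells), the 3 leading genes of macrophage-like clusters and the 2 highest and 2 lowest genes of each list over the mean of both OVA pairs, except 1 gene that is not reported here. Single-cell splits and other genes named beside them were chosen after the values were seen. The 8 genes and the lists were chosen with earlier results of these data known. Sequences came from RefSeq (GRCm38.p6), in which Lyve1 and Msr1 had no promoter entry, and positions from GENCODE M21, and whether the counts were made with either annotation is not given in the sources used here. The scripts were tested on simulated counts. Python 3.11.15, NumPy 2.4.6, SciPy 1.17.1 and pandas 2.3.3 were used.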

Additional observations from a re-analysis of the deposited data

Results flagged for a closer look

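In 5 cases a gene was higher with OVA under one treatment and lower under the other. With 1 library per group these differences between treatments were not tested, and the values are folds of the OVA library over the library without OVA with counting intervals. Lyz2 in neutrophil-like cells was at 0.340 under vehicle (0.332 to 0.349) and at 1.02 under ribavirin (1.00 to 1.04), the latter close to no difference. The mix of clusters in this class differed between libraries. Cluster 18 held 281 of 4707 cells in Ribavirin and 293 of 2018 in Ribavirin-OVA, with 11020 of 12860 Lyz2 UMIs in the latter. Cluster 1 held 201 of 4230 cells in Vehicle and 7204 of 10731 in Vehicle-OVA. The part of this mix in the ratios of the class was not tested. Within the class, Lyz2 was lower with OVA under both treatments in the granule-gene cluster 18 (7824 and 3881 CPM under vehicle, 8206 and 4781 CPM under ribavirin) and in cluster 0, with Cxcr2 among its leading genes (579 and 183 CPM, 599 and 301 CPM). Cluster 10, led by Mmp8, had less Lyz2 with OVA under vehicle (1033 and 458 CPM) and more under ribavirin (667 CPM in 28 cells and 981 CPM in 119 cells). In cluster 1, led by Csf3, the ratio was 0.617 under vehicle (0.515 to 0.745) and 0.975 under ribavirin (0.757 to 1.27), an interval that includes no difference.

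Lyz1 in epithelial-like cells was at 2.31 under vehicle (24 against 15 UMIs) and at 0.0467 under ribavirin (2 against 78 UMIs). Pf4 in cluster 4 was at 0.281 under vehicle (0.103 to 0.616, 6 UMIs with OVA) and at 1.48 under ribavirin (1.03 to 2.07). The interval under ribavirin is too narrow, as the 37 UMIs with OVA lay in 7 of 63 cells, 21 of them in 1 cell. In cluster 19, Cd163 was at 0.336 under vehicle (0.223 to 0.490) and at 1.78 under ribavirin (1.32 to 2.41), with the OVA UMIs in 3 and 6 cells, of which 1 cell of Ribavirin-OVA held 69 of 75. Msr1 in cluster 19 was at 0.603 under vehicle (0.434 to 0.820) and at 1.33 under ribavirin (1.02 to 1.71).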

How the results depend on the processing

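No paired analysis was possible because each group had 1 library, and for the same reason no replicate could be left out. Over 18 alternatives the number of the 8 genes past 2-fold in macrophage-like cells was 0 to 3 higher (main 1) and 3 to 5 lower (main 5) with OVA under vehicle, 1 to 3 higher (main 1) and 1 to 3 lower (main 2) with OVA under ribavirin, 0 higher and 1 to 4 lower (main 2) with ribavirin without OVA, and 0 to 2 higher and 0 to 2 lower (main 1 each) with ribavirin with OVA. The counts of genes 2-fold above monocyte-like cells (4 to 5) and of genes whose share of cells was numerically smaller with OVA (4 to 6, of which Marco and Lyz1 rest on 0 cells when thinned to 1000 UMIs) stayed within 1.5 times.

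For OVA under vehicle, 0 genes were higher with a mitochondrial limit of 20%, with at least 500 genes and 1000 UMIs, at resolution 0.5, with the mean of single-cell CPM and with scaling by the median gene ratio. The number was 2 at resolution 2.0, with doublets kept, without any filter on cells and in C1q-positive cells, and 3 in C1q-positive cells without the condition on Csf3r, an alternative added after the data were seen. It was 3 lower with a mitochondrial limit of 20%, no filter, doublets kept, C1q-positive cells and single-cell means. For OVA under ribavirin, 2 were higher with mitochondrial limits of 5% and 20%, no filter, resolution 2.0 and both C1q-positive groups, and 3 with single-cell means, while 1 was lower with the limit of 20% and with a pseudocount of 10 CPM. For ribavirin without OVA, 1 was lower at resolution 0.5, in C1q-positive cells and among genes with at least 500 UMIs, and 4 with single-cell means. For ribavirin with OVA, 2 were higher with the limit of 20% and in C1q-positive cells, and 0 with no filter, doublets kept, the 8 genes among the clustering genes, no condition on Csf3r, single-cell means and a pseudocount of 10 CPM. There, 2 were lower with the limit of 5% and doublets kept, and 0 with no filter, each library clustered on its own, no condition on Csf3r, a pseudocount of 10 CPM and at least 500 UMIs.

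The sign turned in 49 of 512 log2 ratios. Of these, 7 were of ratios past 2-fold as reported: Cd163 with OVA under vehicle (-0.082 with the limit of 20%), Pf4 with OVA under vehicle (0.14 in C1q-positive cells and 0.54 without the condition on Csf3r), Marco with ribavirin with OVA (-0.75 with doublets kept, -0.66 with the 8 genes among the clustering genes and -0.97 with each library on its own) and Lyve1 with ribavirin with OVA (1.02 in C1q-positive cells). The cause was not tested. The other 42 were among 304 ratios reported as under 2-fold, 20 of them for ribavirin with OVA and 11 for Msr1 with OVA under vehicle. In 4 of these the turned value was itself past 2-fold: Cd163 for ribavirin with OVA (1.16 with the limit of 20%, -0.60 as reported), Msr1 for OVA under vehicle (1.502 in C1q-positive cells and 1.37 without the condition on Csf3r, -0.04 as reported) and Msr1 for ribavirin with OVA (-1.005 in C1q-positive cells, 0.34 as reported). Folr2 with OVA under vehicle turned in 1 alternative, and Pf4 and Marco with OVA under ribavirin in 2 each. Sign and side of 2-fold were both kept in 395 of 512, while 37 lost a call and 31 gained one. Lyz1 and Lyz2 were past 2-fold lower with OVA under vehicle in 16 of 16 alternatives. Depth limits Lyve1, Marco and Lyz1 with OVA, where macrophage-like cells held 2 to 23 UMIs.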
